A study of Mus musculus with 4 samples.

Results

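DNA damage response and repair genes were followed in monocytes that had been sorted by flow cytometry from mouse bone marrow. The members are 42 genes picked by symbol to cover the damage checkpoint and the main repair pathways, out of 31017 gene symbols in the count tables, and they were grouped here into 8 pathways. All 42 were found and all 42 passed the filter on low counts. The series holds 4 bulk RNA sequencing libraries, with 2 from aged mice (18 months) and 2 from young mice (3 months). Both groups are C57BL/6 and wild type, both carry the disease tag atherosclerosis, and neither received a treatment named in the labels. The labels do not say how many animals stand behind a library, so a p-value here reflects only how far these libraries vary, and that variation may be technical. The title links marrow age to the clonal make-up of smooth muscle descendants in atherosclerotic plaques, and the libraries compare gene expression in monocytes at the 2 ages.

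A cell answers DNA damage in layers. Sensor complexes bind breaks or stalled forks and activate the kinases ATM and ATR, which switch on the checkpoint kinases and p53, while separate enzyme sets repair each kind of lesion: end joining and homologous recombination for double-strand breaks, base excision for small base changes, nucleotide excision for bulky adducts, mismatch repair for replication errors and the Fanconi pathway for cross-links. Many of these genes, above all those of homologous recombination and the Fanconi pathway, are transcribed more in dividing cells, and marrow monocytes come from dividing progenitors.

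Total counts ranged from 20159129 to 34278754 per library, and the 42 members took 20238 to 35157 of them. Levels are given as CPM (counts scaled to a common library total, with TMM factors), and levels are compared between genes only per kilobase of exon. The monocyte markers Lyz2 (32700 to 35200 CPM) and Csf1r (1380 to 1770 CPM) were abundant in all 4 libraries, and of 9 monocyte markers 3 rose (Csf1r, Spi1 and Cd68) and 1 fell (Ly6c2). Genes named for neutrophils were abundant too, with a summed level over 8 markers of 17910 and 18100 CPM in aged libraries and 14770 and 15030 CPM in young libraries. Among them Ngp and Ltf rose and Cxcr2 fell with age. In bulk RNA, fewer cells of a type and less RNA per cell cannot be told apart.

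Promoters are shown for Atm, the member that passed the test, for Msh6, which had the smallest p among the mismatch repair genes, and for Chek2, which lies outside the naming rule and was chosen after its matches were seen because it holds an E2F-type motif. Sequences are from RefSeq on GRCm38.p6, which gave a promoter for 34 of the 42 members. The bases printed lie before both the RefSeq start and the first base of the gene in GENCODE M21, read 5′ to 3′ on the strand of the gene. Capitals mark matches on either strand to CCAAT, the box bound by NF-Y, or to TTTCCCGC, an E2F-type motif.
Atm (chr9:53536741-53536921, minus strand): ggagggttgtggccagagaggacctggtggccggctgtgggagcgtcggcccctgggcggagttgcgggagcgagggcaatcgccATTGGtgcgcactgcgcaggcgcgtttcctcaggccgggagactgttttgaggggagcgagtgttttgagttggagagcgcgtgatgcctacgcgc
Msh6 (chr17:87974800-87975049, plus strand): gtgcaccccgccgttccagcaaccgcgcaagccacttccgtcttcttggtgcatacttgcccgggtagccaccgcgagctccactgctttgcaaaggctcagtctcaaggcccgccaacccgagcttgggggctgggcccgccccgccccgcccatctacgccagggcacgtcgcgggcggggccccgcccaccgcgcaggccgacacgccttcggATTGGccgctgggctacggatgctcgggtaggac
Chek2 (chr5:110839733-110839978, plus strand): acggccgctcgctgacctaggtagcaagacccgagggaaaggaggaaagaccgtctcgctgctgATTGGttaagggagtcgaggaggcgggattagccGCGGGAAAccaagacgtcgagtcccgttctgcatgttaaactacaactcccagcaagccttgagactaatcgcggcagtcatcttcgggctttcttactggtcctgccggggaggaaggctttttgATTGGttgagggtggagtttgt

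In the 250 bases before the RefSeq start, TTTCCCGC or TTTGGCGC, searched on both strands, was found in 5 of 37 member promoters (13.5%), those of Brca2, Chek2, Mdc1, Msh3 and Xrcc6. The share was 2.41% of 11861 promoters of tested genes and 1.3% of all 32851 promoters. CCAAT, also on both strands, was found in 48.6% of member promoters and in 35.6% of those of tested genes, and TGACGTCA, the cyclic AMP response element, in 2.7% and 2.59%. The motifs do not overlap in the 3 promoters printed. Atm, whose level differed between the ages, held CCAAT and no match to the E2F-type letters in this window. Of the 5 members with an E2F-type match, Chek2 and Mdc1 had negative log2 changes (-0.25 and -0.11). Brca2, Msh3 and Xrcc6 had positive ones (0.12, 0.12 and 0.18). These matches describe the letters only.

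Aged against young monocytes differed in 694 of 12035 tested genes (5.77%; 2.87% higher and 2.89% lower in aged, edgeR adjusted p under 0.05). Among the 42 members, Atm alone passed, lower in aged monocytes, and 0 rose. With an unadjusted p under 0.05, 9 members stood lower in aged monocytes (21.4%, against 11% of all tested genes) and 0 higher (against 10.1%). That number depended on the tool, with 5 members at an unadjusted p under 0.05 by DESeq2 and 11 by limma-voom. At the adjusted threshold DESeq2 and limma-voom each called 1 member lower and 0 higher. The aged libraries lay below both young ones in 16 members (38.1%, against 25.7% of all tested genes) and above both in 8 (19%, against 25.9%), and 51.6% of all tested genes did not overlap in either direction. The median log2 change of the members was -0.10, beside -0.0040 over all tested genes, and members ranged from -0.83 to 0.28. For 30 members the 95% interval of the change lay within 1.5-fold either way, and for 39 within 2-fold. The median depended on single libraries: without aged replicate 2 the median was -0.022 and without young replicate 2 it was -0.027, and it was -0.17 without aged replicate 1 and -0.12 without young replicate 1.

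**Figure D1:**
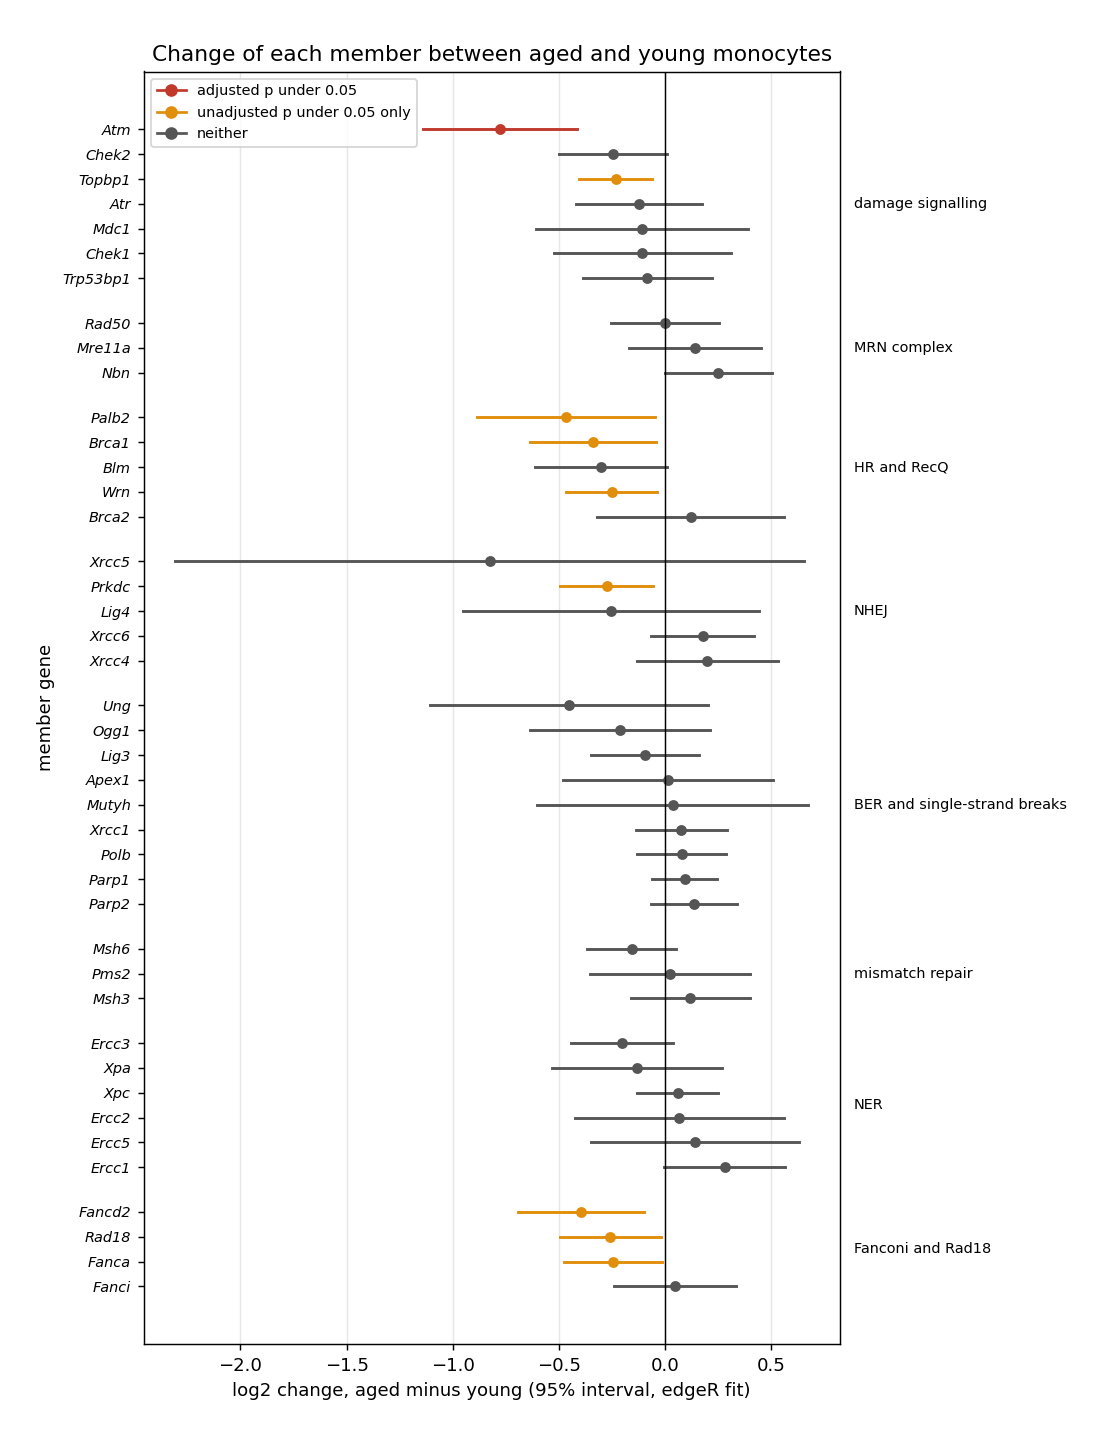
Log2 change from young to aged for each of the 42 members (horizontal axis), grouped by pathway, with the 95% interval of the edgeR fit on 2 libraries per age. Atm is the only member past the adjusted threshold, and the 8 others with an unadjusted p under 0.05 all lie left of 0, in damage signalling, homologous recombination, end joining and the Fanconi group.

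Damage signalling held the only member past the threshold. Atm, the kinase that double-strand breaks activate (ENSMUSG00000034218.16, chromosome 9, 53439149 to 53536740 on GRCm38), stood at 11.4 and 8.24 CPM in aged libraries and at 16.8 and 17.0 CPM in young libraries. Both aged libraries were below both young ones, and aged replicate 2 was the lowest. The means were 9.82 ± 2.24 and 16.9 ± 0.0997 CPM (SD, n = 2 per group). The log2 change was -0.78 ± 0.16 (standard error; 95% interval -1.14 to -0.41; edgeR adjusted p = 0.0221), or 0.584-fold. The call was lost without aged replicate 2 (log2 change -0.57) and without young replicate 1 (-0.78). The log2 change was -1.035 without aged replicate 1 and -0.77 without young replicate 2. Each of these fits left a lone library at an age. With the other scalings and with genes of at least 5 CPM, the edgeR adjusted p ran from 0.0216 to 0.0276. It was 0.00596 with DESeq2, 0.0192 with limma-voom and 1.44e-05 with edgeR and no low-count filter. The lowest, 7.55e-06 with edgeR, took the replicate number as a block, a pairing that the labels do not give.

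The other 6 signalling members did not pass, and all 7 log2 changes were negative, from -0.78 to -0.085, with a median of -0.12 (-0.047 without aged replicate 2, and -0.19 without any other single library). Topbp1, which activates ATR and was the most abundant signalling member per kilobase, stood at 70.6 and 75.8 CPM in aged and 88.3 and 83.6 CPM in young monocytes (-0.23 ± 0.077, edgeR adjusted p = 0.111). Its groups did not overlap, and neither did those of Chek2 and, by less than the rounding of the values (14.6 CPM in aged replicate 1 and in young replicate 1), of Atr. Chek2, the checkpoint kinase downstream of ATM, gave -0.25 ± 0.11 (edgeR adjusted p = 0.249). Atr itself, the kinase of stalled forks, gave a log2 change of -0.12 with an interval of -0.42 to 0.17. Chek1, its target kinase, gave -0.11 (-0.52 to 0.31). Of the adaptors that gather at broken ends, Mdc1 gave -0.11 (-0.61 to 0.39) and Trp53bp1 -0.085 (-0.39 to 0.22). Mdc1 varied within groups, with 18.5 and 11.2 CPM in aged libraries and 18.7 and 13.1 CPM in young libraries, and its groups overlapped. Trp53bp1 shares 15% of its exon bases with Tubgcp4 on the opposite strand, and the strand setting of the counting is not given in the sources used here.

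The MRN complex, which binds broken ends and recruits ATM, had 0 members with an unadjusted p under 0.05, and its signs were mixed. Nbn, its signalling subunit, stood at 26.2 and 23.1 CPM in aged libraries and at 20.2 and 21.4 CPM in young libraries (0.25 ± 0.11, edgeR adjusted p = 0.242). Both aged values were above both young ones, but the change did not pass. Mre11a, the nuclease, gave 0.14 (95% interval -0.17 to 0.45), and Rad50, the scaffold, gave -0.0020 (-0.26 to 0.25). The median of the 3 was 0.14, and it stayed positive under all 12 alternatives, from 0.089 to 0.21. Summed over the subunits the level was 79.3 and 73.8 CPM in aged and 71.5 and 68.9 CPM in young monocytes.

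**Figure D2:**
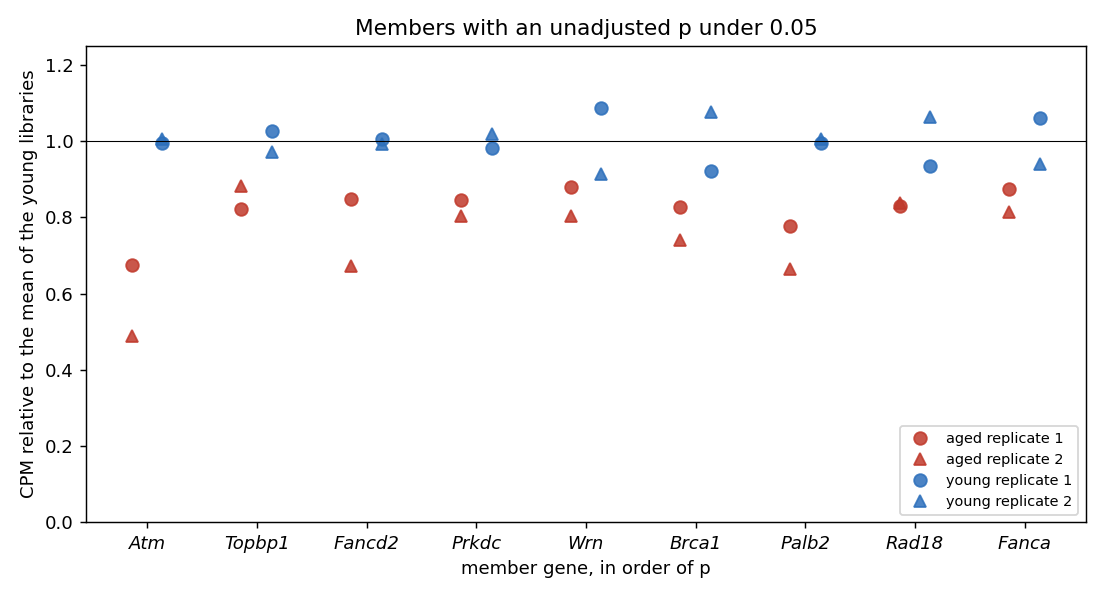
CPM of the 9 members with an unadjusted p under 0.05, each divided by its mean in the young libraries (vertical axis, starting at 0). Circles are replicate 1 and triangles replicate 2, red for aged and blue for young; in each gene both aged points lie below both young points, and Atm is lowest in aged replicate 2 (8.24 against a young mean of 16.9 CPM).

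Homologous recombination, which copies the intact sister strand, had negative log2 changes in 4 of its 5 members, with 0 past the threshold. At an unadjusted p under 0.05, 3 members were lower (60%, against 11% of all tested genes). Palb2, the bridge between the BRCA proteins, stood at 5.66 and 4.83 CPM in aged libraries and at 7.24 and 7.32 CPM in young libraries (-0.47 ± 0.19, edgeR adjusted p = 0.188). Brca1 stood at 15.5 and 13.9 against 17.3 and 20.2 CPM (-0.34 ± 0.13, edgeR adjusted p = 0.174). In both genes the aged libraries were below the young ones. Wrn and Blm are RecQ helicases, which unwind recombination intermediates. Wrn was the most abundant of the 5 per kilobase, at 64.7 and 59.1 CPM in aged and 79.9 and 67.2 CPM in young monocytes (-0.25 ± 0.097, edgeR adjusted p = 0.167), and Blm gave -0.30 ± 0.14 (edgeR adjusted p = 0.25). Brca2, a mediator of strand exchange, had the opposite sign, 0.12 (95% interval -0.32 to 0.56), with overlapping groups. The median of the 5 was -0.30, and it was negative under all 12 alternatives (-0.40 to -0.23).

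The Fanconi group, in which Rad18 was placed beside the Fanconi genes, had 0 members past the threshold. At an unadjusted p under 0.05, 3 of 4 were lower, Fancd2, Rad18 and Fanca (75%, against 11% of all tested genes). Fancd2, whose ubiquitination marks cross-links for repair, stood at 18.0 and 14.3 CPM in aged libraries and at 21.4 and 21.1 CPM in young libraries (-0.40 ± 0.13, edgeR adjusted p = 0.118). It missed the threshold in the full comparison and passed without aged replicate 1 (-0.58, edgeR adjusted p = 0.0146) and with no low-count filter (-0.40, edgeR adjusted p = 0.0387). Rad18, the ligase that marks the replication clamp for damage bypass, stood at 24.4 and 24.6 against 27.5 and 31.3 CPM (-0.26 ± 0.11, edgeR adjusted p = 0.199). Fanca, part of the ubiquitin ligase core, gave -0.25 ± 0.10 (edgeR adjusted p = 0.208) and shares 10.5% of its exon bases with Zfp276 on the opposite strand. Fanci, the partner of FANCD2, gave 0.046 (95% interval -0.24 to 0.33), and shares 16% of its exon bases with Polg on the opposite strand. The difference between the partners was not tested. The median of these 4 was -0.25, negative under all 12 alternatives (-0.28 to -0.22).

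Non-homologous end joining, a route for double-strand breaks, showed members of both signs and 0 past the threshold. At an unadjusted p under 0.05, 1 member was lower, Prkdc (20%, against 11% of all tested genes). Prkdc, the catalytic subunit of the DNA-dependent protein kinase, stood at 26.8 and 25.5 CPM in aged and 31.1 and 32.3 CPM in young monocytes (-0.28 ± 0.098, edgeR adjusted p = 0.138), without overlap. Xrcc6, the smaller Ku subunit and the most abundant member here per kilobase, stood at 32.1 and 27.5 against 26.8 and 25.9 CPM (0.18 ± 0.11, edgeR adjusted p = 0.394). Xrcc4, the scaffold of the ligation step, gave 0.20 (95% interval -0.13 to 0.53), and Lig4, the ligase, -0.25 (-0.95 to 0.44). Xrcc5, the larger Ku subunit, had only 14 and 3 counts in aged libraries and 23 and 12 in young libraries (log2 change -0.83 ± 0.67, edgeR adjusted p = 0.525). Per kilobase its level was 0.192 CPM against 6.27 CPM for Xrcc6, although the proteins work as a heterodimer. GENCODE M21 shows 0% of its exon bases shared with another gene in the tables, and the cause of its low count was not tested. The median of the 5 was -0.25, and it turned positive among genes of at least 5 CPM (0.18) and without young replicate 2 (0.033).

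Base excision and single-strand break repair had 0 of 9 members past the threshold and 0 at an unadjusted p under 0.05. Parp1, the sensor that coats nicks with poly(ADP-ribose), was the most abundant of all 42 per kilobase (23.7 CPM per kilobase, above 82% of tested genes). It stood at 135 and 124 CPM in aged and 122 and 121 CPM in young monocytes (0.091 ± 0.068, 95% interval -0.060 to 0.24; edgeR adjusted p = 0.487). Parp2, its paralogue, gave 0.14 (-0.065 to 0.34), the gap-filling polymerase gene Polb 0.078 (-0.13 to 0.29), the scaffold gene Xrcc1 0.075 (-0.14 to 0.29) and the ligase gene Lig3 -0.095 (-0.35 to 0.16). Lig3 shares 25.1% of its exon bases with Rffl on the opposite strand. Of the glycosylases, which cut out damaged bases, Ung, which removes uracil, was low, at 1.91 and 2.71 CPM in aged and 3.07 and 3.26 CPM in young monocytes (-0.45 ± 0.30, edgeR adjusted p = 0.416). Its aged values were below the young ones, but its interval reached from -1.11 to 0.20. Ogg1, which removes oxidised guanine, gave -0.21 (-0.64 to 0.21) and shares 10.6% of its exon bases with Camk1 on the opposite strand, and Mutyh, which removes adenine paired with it, gave 0.035 (-0.60 to 0.67). Apex1, the endonuclease that cuts the emptied site, gave 0.014 (-0.48 to 0.51). Over the 9 the median was 0.035, between 0.0090 and 0.082 over the alternatives.

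Mismatch repair had 0 of 3 members past the threshold and 0 at an unadjusted p under 0.05. Msh6, which recognises single mismatches, stood at 55.4 and 47.4 CPM in aged libraries and at 59.2 and 55.5 CPM in young libraries (-0.16 ± 0.095, edgeR adjusted p = 0.376). The groups did not overlap, although the higher aged and lower young values, 55.4 and 55.5 CPM, nearly met. Msh3, which recognises larger loops, gave 0.12 (95% interval -0.16 to 0.40), and Pms2, the nicking subunit, 0.021 (-0.36 to 0.40). Over the 3 the median was 0.021, and -0.11 without young replicate 1.

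Nucleotide excision repair had 0 of 6 members past the threshold and 0 at an unadjusted p under 0.05. Ercc1, part of the nuclease that cuts 5′ of the lesion, had the largest positive change of all members, at 18.8 and 17.4 CPM in aged libraries and at 14 and 16 CPM in young libraries (0.28 ± 0.13, 95% interval -0.0040 to 0.56; edgeR adjusted p = 0.243). Both aged values were higher than both young ones. Xpc, which finds the distorted helix and was the most abundant of this group per kilobase, stood at 57.7 and 59.4 against 53.3 and 59.4 CPM (0.058 ± 0.086, edgeR adjusted p = 0.746), with overlapping groups. Ercc3, a helicase of TFIIH, gave -0.20 (-0.44 to 0.038), and Ercc2, the other TFIIH helicase, gave 0.067 (-0.43 to 0.56) and shares 42.4% of its exon bases with genes on the opposite strand. Xpa, which verifies the lesion, gave -0.13 (-0.53 to 0.27), and Ercc5, the nuclease that cuts on the other side, 0.14 (-0.35 to 0.63). Over the 6 the median was 0.062, and -0.044 without young replicate 1.

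**Figure D3:**
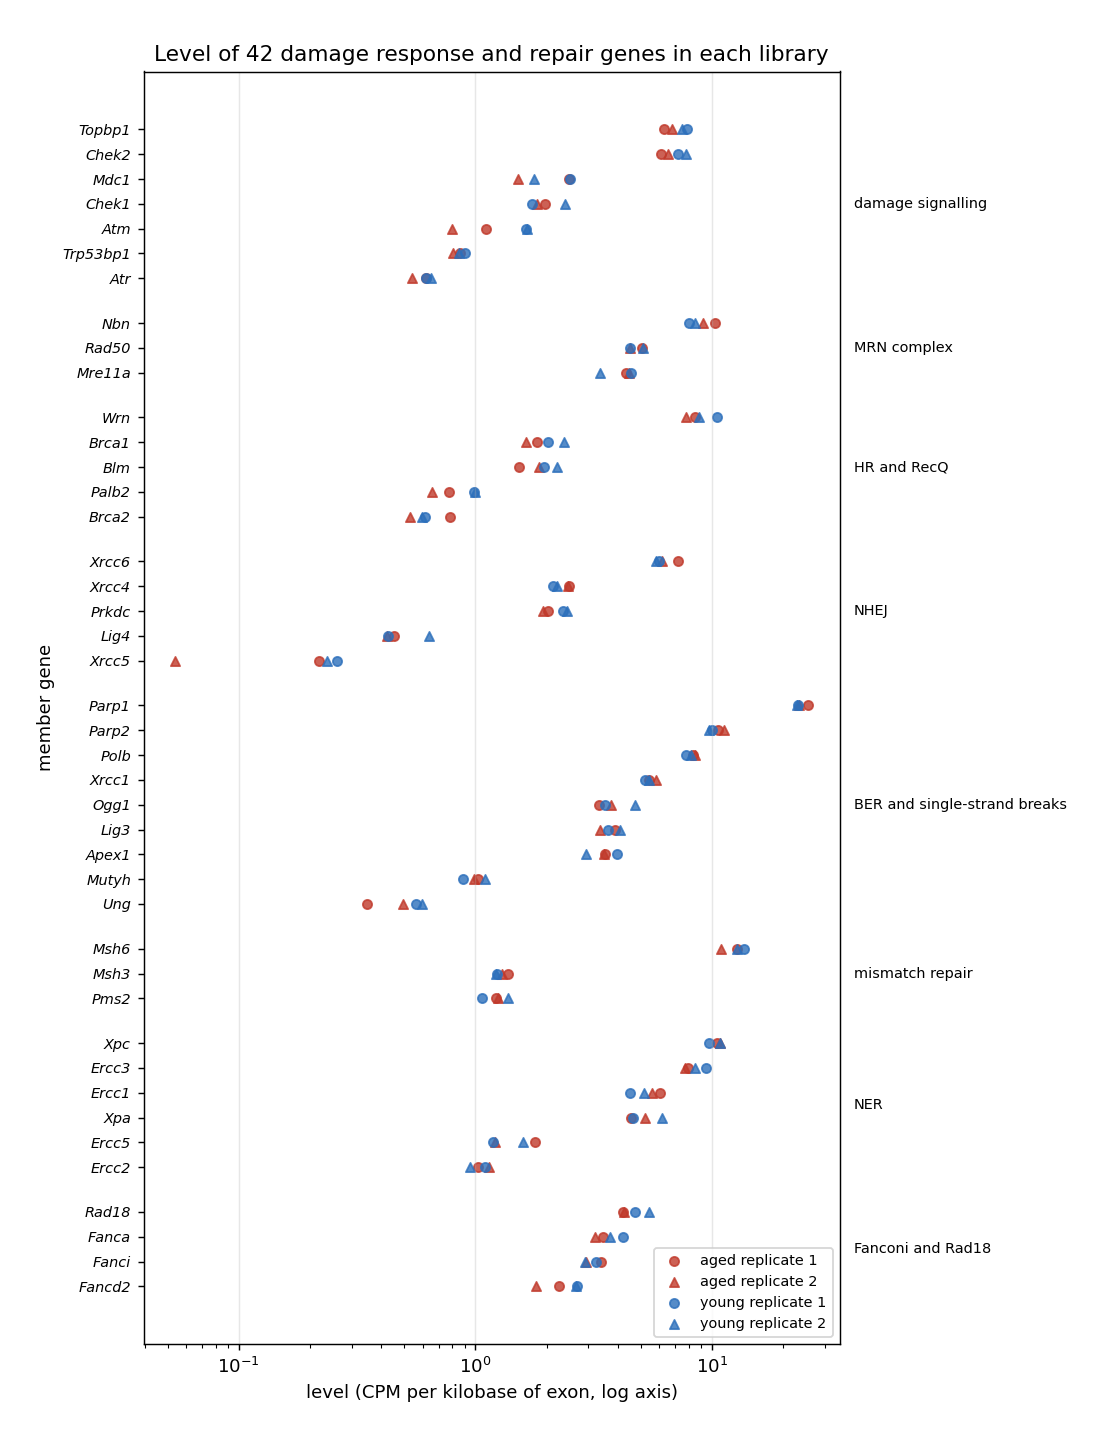
Level of each member in each library, in CPM per kilobase of exon on a log axis, grouped by pathway and ordered by level. Circles are replicate 1 and triangles replicate 2, red for aged and blue for young; Parp1 is highest (mean 23.7) and Xrcc5 lowest (mean 0.192), and for most members the spread over the 4 libraries is small beside the distance between genes.

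Members also differed between libraries of the same age. In 28 of 42 members aged replicate 2 was lower than aged replicate 1, with a median log2 ratio of -0.095 between them, and in 18 of 42 young replicate 2 was lower than young replicate 1 (median 0.055). Across the members, the log2 change correlated with exon length at a Spearman rho of -0.24 (n = 42 genes, which share the same 4 libraries), beside -0.12 over all tested genes.

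Of 111 tested genes of the same pathways outside the members, 2 fell and 0 rose (1.80%, beside 5.77% of all tested genes), with a median of -0.024. At an unadjusted p under 0.05, 15 were lower (13.5%, against 11% of all tested genes) and 3 higher (2.7%, against 10.1%). In damage signalling 4 of 18 were lower (22.2%), in homologous recombination 4 of 26 (15.4%) and in the Fanconi group 3 of 24 (12.5%). Within these groups 1 was higher at that p, in homologous recombination. The Fanconi group here also holds genes of damage bypass, among them Polh, which was lower at that p. By pathway, the medians of these other genes lay nearer 0 than those of the members in damage signalling (-0.062, 18 genes), homologous recombination (-0.050, 26 genes) and the Fanconi group (-0.064, 24 genes), and in end joining the sign was opposite (0.10, 7 genes, 6 of them positive). They were 0.036 in base excision (16 genes), -0.20 in mismatch repair (4 genes) and 0.032 in nucleotide excision (16 genes). Both that fell are nucleases of end resection in homologous recombination. Exo1 stood at 11.3 and 8.83 CPM in aged and 16.3 and 15.6 CPM in young monocytes (-0.66 ± 0.15, edgeR adjusted p = 0.0328), and Dna2 at 128 and 135 against 161 and 156 CPM (-0.27 ± 0.064, edgeR adjusted p = 0.037). Neither passed without young replicate 1 or without young replicate 2, Exo1 did not pass without aged replicate 2, and Dna2 did not pass without aged replicate 1.

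Of 21 tested p53 target genes, 1 rose (4.76%, against 2.87% of all tested genes) and 0 fell (against 2.89%). Their median was 0.16 (0.10 without aged replicate 1). At an unadjusted p under 0.05, 3 were higher (14.3%, against 10.1% of all tested genes) and 2 lower (9.52%, against 11%). Pmaip1, which encodes the pro-apoptotic protein NOXA, stood at 42.6 and 33.3 CPM in aged and 23.2 and 22 CPM in young monocytes (0.75 ± 0.13, edgeR adjusted p = 0.00732), and it passed with each library left out. Other targets, chosen after their values were seen, did not pass in the full comparison. Btg2 (0.19 ± 0.056, edgeR adjusted p = 0.0826) and Plk2 (0.86 ± 0.295, edgeR adjusted p = 0.125) had positive signs. Both passed with no low-count filter (edgeR adjusted p = 0.0396 for Btg2 and 0.0256 for Plk2). Cdkn1a, the p21 gene, gave 0.16 ± 0.13 (edgeR adjusted p = 0.547) and Mdm2, the ligase that degrades p53, gave 0.15 ± 0.073 (edgeR adjusted p = 0.282). Trp53inp1 had a negative sign (-0.28 ± 0.075, edgeR adjusted p = 0.0543) and passed with DESeq2 (adjusted p = 0.0449), limma-voom (adjusted p = 0.0444), no low-count filter (edgeR adjusted p = 0.00239) and without aged replicate 1 (edgeR adjusted p = 0.00271).

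Proliferation and progenitor genes are given beside the lower members. Of 22 proliferation genes 1 fell and 0 rose, 12 had an unadjusted p under 0.05 and a negative sign (54.5%, against 11% of all tested genes), and the aged libraries lay below both young ones in 18. Mcm7, a subunit of the replicative helicase, stood at 154 and 165 CPM in aged and 198 and 195 CPM in young monocytes (-0.30 ± 0.063, edgeR adjusted p = 0.0207) and did not pass without young replicate 1 or young replicate 2. The median of the proliferation genes was -0.15, and their summed level was 3196 and 3125 CPM in aged and 3508 and 3493 CPM in young monocytes. Mki67, chosen after its values were seen, stood at 83.1 and 58 against 62.6 and 56.3 CPM (0.25, edgeR adjusted p = 0.348) and passed without aged replicate 2 (0.48, edgeR adjusted p = 0.0144).

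Of 9 myeloid progenitor markers 6 fell (66.7%, against 2.89% of all tested genes) and 0 rose. Their summed level was 2937 and 2988 CPM in aged and 3588 and 3649 CPM in young monocytes. Those with the smallest p were Ms4a3, a gene of granulocyte and monocyte progenitors (-0.56, edgeR adjusted p = 0.00298), and the granule protease genes Elane (-0.33, 0.00473), Prtn3 (-0.36, 0.0101) and Ctsg (-0.42, 0.0182). All 9 were detected. Gata2, named after its values were seen, alone had a positive log2 change (0.79, edgeR adjusted p = 0.281). It stood at 1.64 and 2.48 CPM in aged and 1.33 and 1 CPM in young monocytes. The B-lineage markers Cd79b (25 and 27.6 CPM in aged against 18.5 and 18.4 CPM in young monocytes, edgeR adjusted p = 0.025) and Ms4a1 (3.99 and 4.56 against 1.79 and 1.76 CPM, edgeR adjusted p = 0.0251) rose. The 7 erythroid markers summed to 174 and 184 against 159 and 150 CPM, and Slc4a1 rose. The 6 dendritic markers summed to 188 and 193 against 165 and 171 CPM, mostly from Cd209a (138 and 140 against 125 and 131 CPM). Flt3 rose, and 4 of the 6 log2 changes were positive. Clec9a (-0.19, edgeR adjusted p = 0.834) and Xcr1 (-0.68, edgeR adjusted p = 0.567) had negative ones. Of the 6 T and NK markers 0 passed with edgeR. They summed to 40.2 and 38.9 against 43.7 and 49.8 CPM, mostly from Nkg7 (32.8 and 29.1 against 36.8 and 41.5 CPM). Nkg7 gave -0.33 (edgeR unadjusted p = 0.0098). The other 5 had positive log2 changes, and the median of the 6 was 0.27. The part of these cells, and of cell division, in the values of Atm and the other lower members was not tested.

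**Figure D4:**
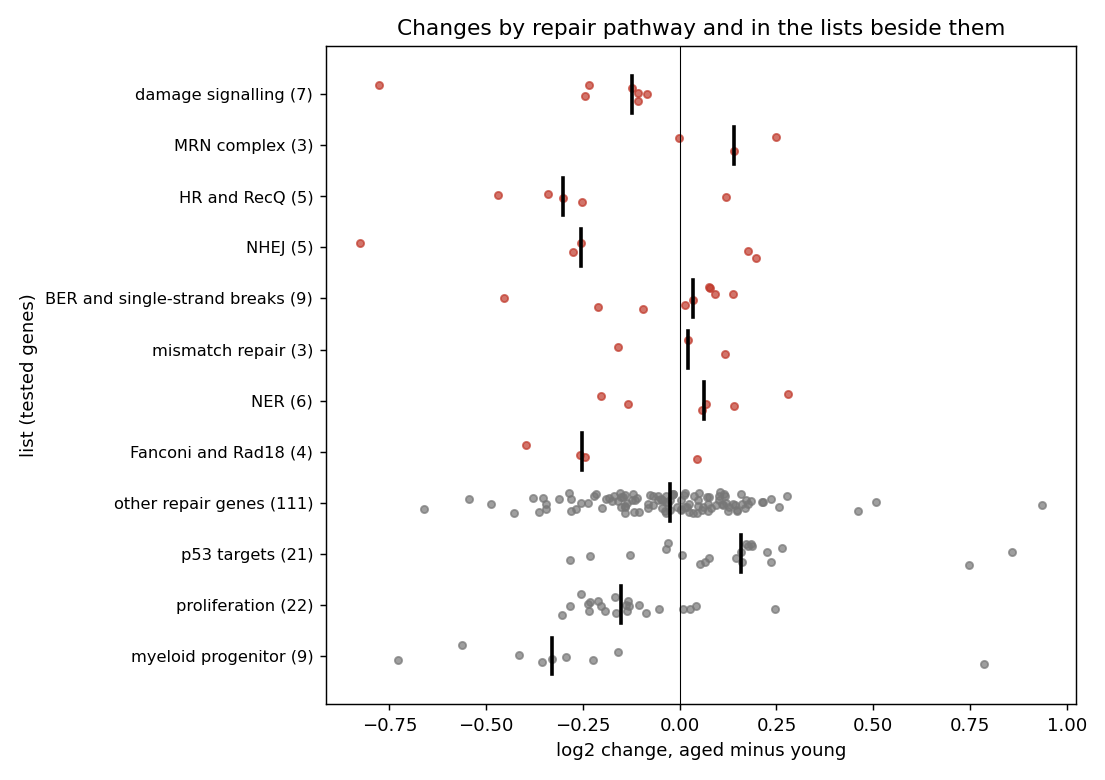
Log2 change from young to aged (horizontal axis) of the members in each repair pathway (red) and in the lists set beside them (grey), with the number of genes in brackets and a black bar at the median. The medians of the members are negative for damage signalling (-0.12), homologous recombination (-0.30), end joining (-0.25) and the Fanconi group (-0.25). That of end joining turned positive among genes of at least 5 CPM (0.18) and without young replicate 2 (0.033). Those of the other lists are -0.024 for the other repair genes, negative for proliferation (-0.15) and myeloid progenitors (-0.33) and positive for p53 targets (0.16).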

How the data were processed

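Monocytes sorted from bone marrow were profiled by bulk RNA sequencing in 2 aged and 2 young libraries, grouped by the sample titles. The labels' protocols describe poly(A) capture on oligo-dT beads and dUTP-based libraries that keep strand. Each library has its own deposited table of raw counts by gene symbol, in whole numbers with unequal totals. Cutadapt, STAR (version 2.5.3), HTSeq, DESeq2 and mm10 appear, without roles, in the submitters' processing notes. The annotation is not given in the sources used here, nor is the strand setting of the counting.

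Genes were kept by filterByExpr (minimum count 10, minimum total 15), scaled by TMM and compared between ages by edgeR's two-sided quasi-likelihood test (glmQLFTest, edgeR 4.0.16, R 4.3.3), adjusted by Benjamini-Hochberg over 12035 genes at 0.05. Standard errors are the log2 change divided by the square root of F, and 95% intervals are unadjusted. A count of 0 allows up to 3 counts, which is 0.0868 to 0.151 CPM; floors cover counting error only. Positions and exon lengths come from GENCODE M21 (GRCm38, the same assembly as mm10), in which 30477 of 31017 symbols matched exactly 1 gene. Exon sharing was counted against genes in the tables. Promoter motifs were searched in the 250 bases before each RefSeq start.

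The members and lists were chosen with earlier results of these data known. Values per library are given for members past the threshold and, in each pathway, for those with the smallest p, the largest log2 change and the highest level per kilobase; other members are given by their change or as named. Of the other lists, up to 4 genes per direction past the threshold are named, or else the gene with the smallest p. Alternatives were 3 other scalings, 2 other filters, DESeq2 1.42.0, limma-voom (limma 3.58.1), a replicate block, and leaving out each library in turn, where the lone library of its age is assumed to vary like the other age. The procedure was tested on simulated data. The summed level of the B-lineage markers is not reported here.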

Additional observations from a re-analysis of the deposited data

How the results depend on the processing

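The median log2 change of the members was negative in all 12 alternatives, from -0.17 without aged replicate 1 to -0.022 without aged replicate 2, and 26 of 42 members kept their sign in all alternatives that tested them. Over the libraries left out, genes called higher in aged monocytes numbered 116 to 452 and lower 81 to 588; members called lower 0 to 2, with 0 higher throughout; other repair genes lower 0 to 5; p53 targets higher 1 to 2 and lower 0 to 1; proliferation genes higher 0 to 1 and lower 0 to 4. Without young replicate 1, the deepest library, the counts were smallest (116 higher, 81 lower, 0 members). With no low-count filter 606 genes were higher and 793 lower, and the lower calls were 2 members (Atm and Fancd2), 8 other repair genes, 1 p53 target and 7 proliferation genes, with 3 p53 targets higher; the cause was not tested. With genes of at least 5 CPM, 2 proliferation genes were lower, as with limma-voom, and limma-voom and DESeq2 each called 1 p53 target lower. The labels do not say that replicate numbers pair the libraries, and the deviations of same-numbered libraries from their group means correlated at 0.094 over genes and 0.22 over the members. With the replicate number as a block, 801 genes were higher and 1016 lower, and 13 members had an unadjusted p under 0.05, and the lower calls were 4 members (Atm, edgeR adjusted p = 7.55e-06, Fancd2, 0.017, Topbp1, 0.0196, and Wrn, 0.0194), 8 other repair genes, 2 p53 targets (Trp53inp1 and Sesn2) and 10 proliferation genes, with 1 other repair gene, 3 p53 targets and 1 proliferation gene higher. Members under about 5 CPM, such as Xrcc5, Lig4, Ung, Mutyh and Ercc2, had wide intervals, so changes of the size seen in better covered members were not detectable in them.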
